A study of Arabidopsis thaliana with 10 samples.

Results

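The genes described here are 10 core genes of the circadian clock of Arabidopsis thaliana: CCA1 (AT2G46830), LHY (AT1G01060), PRR9 (AT2G46790), PRR7 (AT5G02810), PRR5 (AT5G24470), TOC1 (AT5G61380), GI (AT1G22770), ELF3 (AT2G25930), ELF4 (AT2G40080) and LUX (AT3G46640, listed as PCL1 in RefSeq). They were chosen by locus code, and all 10 were among the 23668 features tested, of which 20039 were genes with a locus code and the rest probes without one. These features are called all genes below. Their RNA was measured in whole seedlings of ecotype Columbia-0 that were 14 days old at treatment and had grown on sucrose-containing agar in long days. The gamma group had received 200 Gy from a cobalt source at 50 Gy per h for 4 h and the mock group had not been irradiated, and both were sampled 24 h later. The experiment was repeated in 5 runs on different days with independent plants, 2 in an earlier year and 3 in a later one, with 1 array of either treatment from each run. The hour of day at harvest is not given in the sources used here.

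The plant clock is a loop of transcription factors that repress one another in turn through the day. CCA1 and LHY are MYB-like factors that peak near dawn and repress the genes of the evening. The pseudo-response regulators PRR9, PRR7, PRR5 and TOC1 follow in that order from morning to dusk and repress CCA1 and LHY. ELF3, ELF4 and LUX form the evening complex, a repressor of PRR9 among others, and GI is a large protein of the late day that works with the F-box protein ZTL in the removal of TOC1. For the comparisons below CCA1, LHY and PRR9 are called morning genes, PRR7 and PRR5 midday genes, and TOC1, GI, ELF3, ELF4 and LUX evening genes.

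Levels are log2 of the processed spot signal minus the 75th percentile of that signal on the same array, so a level of 0 lies at the array's 75th percentile and a difference of 1 is a factor of 2. Levels of different genes come from different probes and are not set against each other. All 10 genes were well above background on all 10 arrays. Between 71.7% and 76.6% of probes were well above background on an array. Precision is limited by there being 5 arrays per group. The arrays of a run shared 1 slide and 1 scan, so that run, slide and scan cannot be told apart, and mock and gamma arrays always held different slide positions, so that treatment and position cannot be told apart. Leaf markers (4 of 4) and root markers (5 of 6) were well above background on all arrays. Run 2 stood apart: the SD over all genes of the gamma minus mock difference was 0.58 there and between 0.35 and 0.43 in the other runs, and its gamma array had the highest 75th percentile of signal, 2642 against 1644 to 2158 on the other 9. The DNA damage genes SMR7, PARP2 and BRCA1 were higher on the gamma array in 5 of 5 runs, in run 2 by 5.82, 4.49 and 3.72 on the log2 scale.

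**Figure D1:**
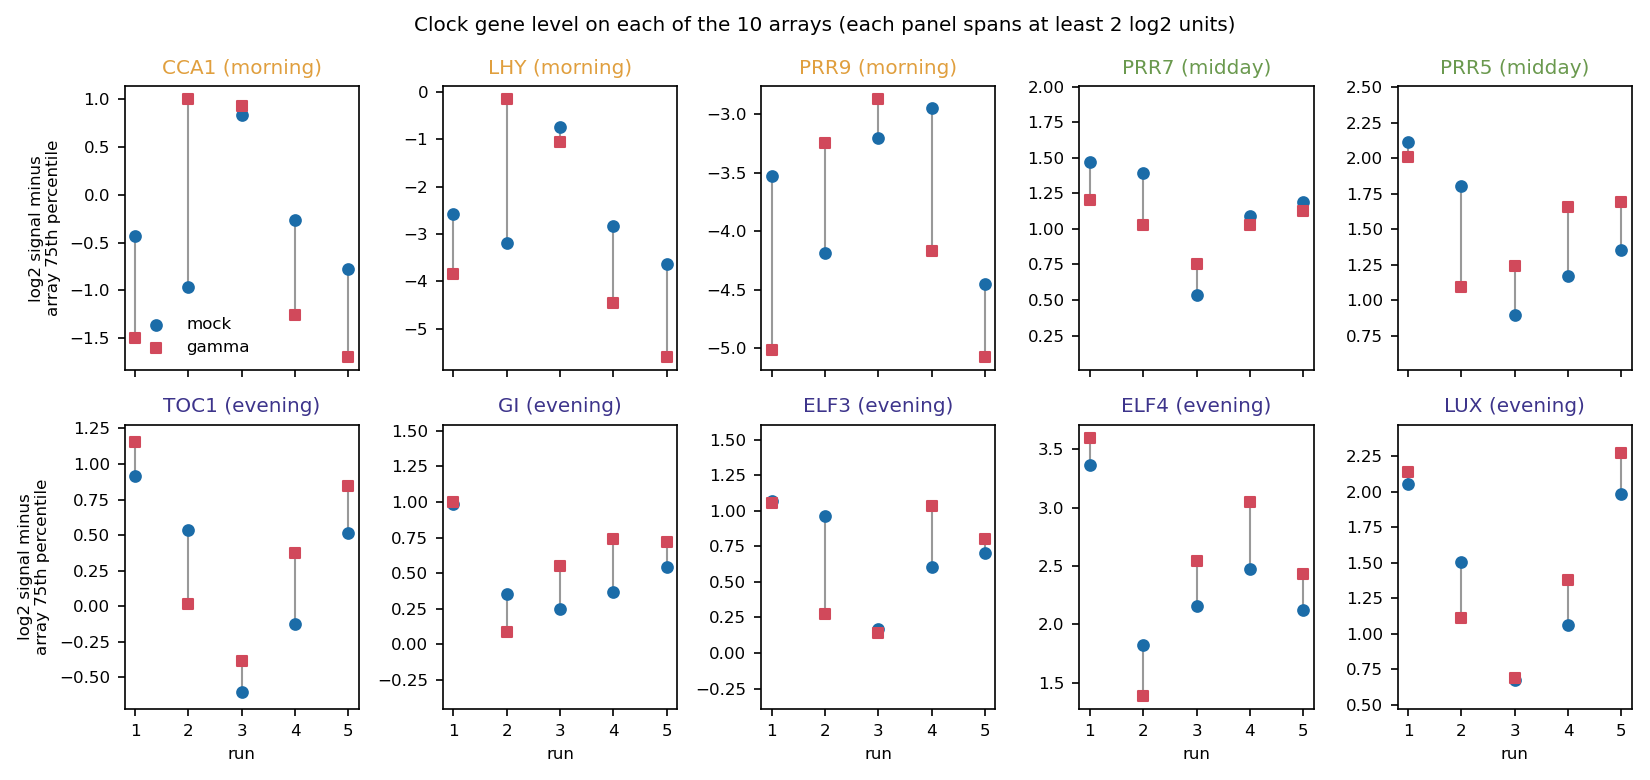
Level of each clock gene (log2 signal minus the array's 75th percentile) on the mock arrays (circles) and gamma arrays (squares) of runs 1 to 5, with a grey line joining the 2 arrays of a run. Panels have their own vertical axes. CCA1, LHY and PRR9 are higher on the gamma array in run 2 and lower on it in runs 1, 4 and 5, while all 5 evening genes are lower on the gamma array in run 2.

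The first comparison asked whether clock genes differed between irradiated and mock seedlings at 24 h. None of the 10 passed the threshold (limma with the run as a block, Benjamini-Hochberg adjusted p under 0.05), where 4.01% of all genes tested did. At an unadjusted p under 0.05 there were 0 of 10, against 21.9% of all genes. No member had the same sign of gamma minus mock in 5 of 5 runs (0 of 10), where 23.7% of all genes did. The fitted gamma minus mock difference was above 0 for 5 genes and below 0 for 5, with a median of 0.01, beside a median of -0.02 over all genes. Within single runs, however, the morning genes differed by up to 8.22-fold, and they did so in opposite directions in run 2 and in runs 1, 4 and 5. In such whole-seedling RNA, fewer cells with a transcript and less transcript per cell cannot be told apart.

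LHY varied more than any other member. On the mock arrays of runs 1 to 5 its level was -2.57, -3.19, -0.74, -2.82 and -3.64, and on the gamma arrays it was -3.84, -0.15, -1.05, -4.46 and -5.61. The highest of the 10 values belonged to the gamma array of run 2 and the lowest to that of run 5, and the mock values lay inside the range of the gamma values. In run 2 LHY was 8.22-fold higher on the gamma array (a log2 difference of 3.04), while in runs 1, 3, 4 and 5 it was 2.41-fold, 1.24-fold, 3.11-fold and 3.90-fold lower. The fitted difference was -0.43 ± 0.73 SE (n = 5 pairs, 95% interval -2.19 to 1.34, limma adjusted p = 0.766).

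CCA1, the closest relative of LHY in the clock, showed the same signs in 4 of the 5 runs. Its mock levels were -0.43, -0.97, 0.83, -0.27 and -0.78 and its gamma levels -1.50, 1.00, 0.93, -1.26 and -1.70. The gamma array of run 2 and both arrays of run 3 stood above 0.8, and the other 7 arrays lay below 0. Gamma minus mock was 1.97 in run 2, 0.09 in run 3 and -1.07, -0.997 and -0.93 in runs 1, 4 and 5, with a fitted difference of -0.19 ± 0.47 SE (95% interval -1.31 to 0.94, limma adjusted p = 0.847). A second, dimmer probe of CCA1, well above background on all 10 arrays, gave 1.75 in run 2 and -0.92, -1.29 and -1.097 in runs 1, 4 and 5. In run 3 it gave -0.37, the opposite sign to the brighter probe. The third probe was well above background on 6 arrays, and its values are not used.

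PRR9, the earliest of the pseudo-response regulators in the day, had mock levels of -3.53, -4.18, -3.20, -2.95 and -4.45 and gamma levels of -5.02, -3.25, -2.87, -4.17 and -5.08. The 2 lowest values were both gamma arrays, in runs 1 and 5, and the highest was the gamma array of run 3. Gamma minus mock was -1.49, 0.94, 0.33, -1.22 and -0.63 in runs 1 to 5. The fitted difference of -0.41 ± 0.37 SE did not pass (95% interval -1.31 to 0.48, limma adjusted p = 0.55).

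Of the midday genes, PRR7 had the lowest SD of run means and the lowest SD of gamma minus mock among the 10, 0.26 and 0.23. Its levels ran from 0.54 to 1.47 on the mock arrays and from 0.75 to 1.20 on the gamma arrays, the gamma range lying within the mock range. Its fitted difference was -0.11 ± 0.09 SE (limma adjusted p = 0.526), with single runs between -0.37 and 0.22. A second, dimmer probe of PRR7, well above background on all 10 arrays, gave -0.06, -0.76, 0.13, -0.05 and -0.05 in runs 1 to 5. PRR5 had mock levels of 2.12, 1.81, 0.90, 1.17 and 1.35 and gamma levels of 2.01, 1.09, 1.24, 1.66 and 1.69. Gamma minus mock was -0.71 in run 2, -0.11 in run 1 and 0.34, 0.48 and 0.34 in runs 3, 4 and 5, and the fitted difference was 0.07 ± 0.18 SE (limma adjusted p = 0.853).

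All 5 evening genes were lower on the gamma array in run 2. TOC1 had mock levels of 0.92, 0.54, -0.60, -0.12 and 0.51 and gamma levels of 1.15, 0.02, -0.38, 0.38 and 0.84, so that the 2 groups covered much the same range. Its gamma minus mock difference was -0.52 in run 2 and between 0.22 and 0.50 in the other 4, with a fitted value of 0.15 ± 0.15 SE (limma adjusted p = 0.582). ELF4, the small protein of the evening complex, had mock levels of 3.37, 1.82, 2.15, 2.47 and 2.12 and gamma levels of 3.60, 1.38, 2.54, 3.05 and 2.43. The lowest and the highest of these were both gamma arrays, in runs 2 and 1. Its difference was -0.44 in run 2 and between 0.23 and 0.58 elsewhere, fitted at 0.21 ± 0.15 SE (limma adjusted p = 0.436), the lowest adjusted p of the 10 genes.

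GI had mock levels between 0.25 and 0.98 and gamma levels between 0.09 and 1.00, with a gamma minus mock difference of -0.26 in run 2 and of 0.02 to 0.37 in the others. Its second probe gave -0.29 in run 2 and 0.10 to 0.32 elsewhere. LUX, the DNA-binding member of the evening complex, had mock levels of 2.06, 1.51, 0.67, 1.06 and 1.98 and gamma levels of 2.14, 1.11, 0.69, 1.38 and 2.27. Both groups were lowest in run 3. Its difference was -0.40 in run 2 and between 0.02 and 0.32 in the others with the brighter probe, and -0.94 and between -0.13 and 0.19 with the other. ELF3, the scaffold of that complex, gave -0.69 in run 2, 0.43 in run 4 and between -0.03 and 0.10 in the remaining runs. The fitted differences were 0.12 ± 0.10 SE for GI, 0.06 ± 0.11 SE for LUX and -0.04 ± 0.15 SE for ELF3 (limma adjusted p = 0.528, 0.781 and 0.901).

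**Figure D2:**
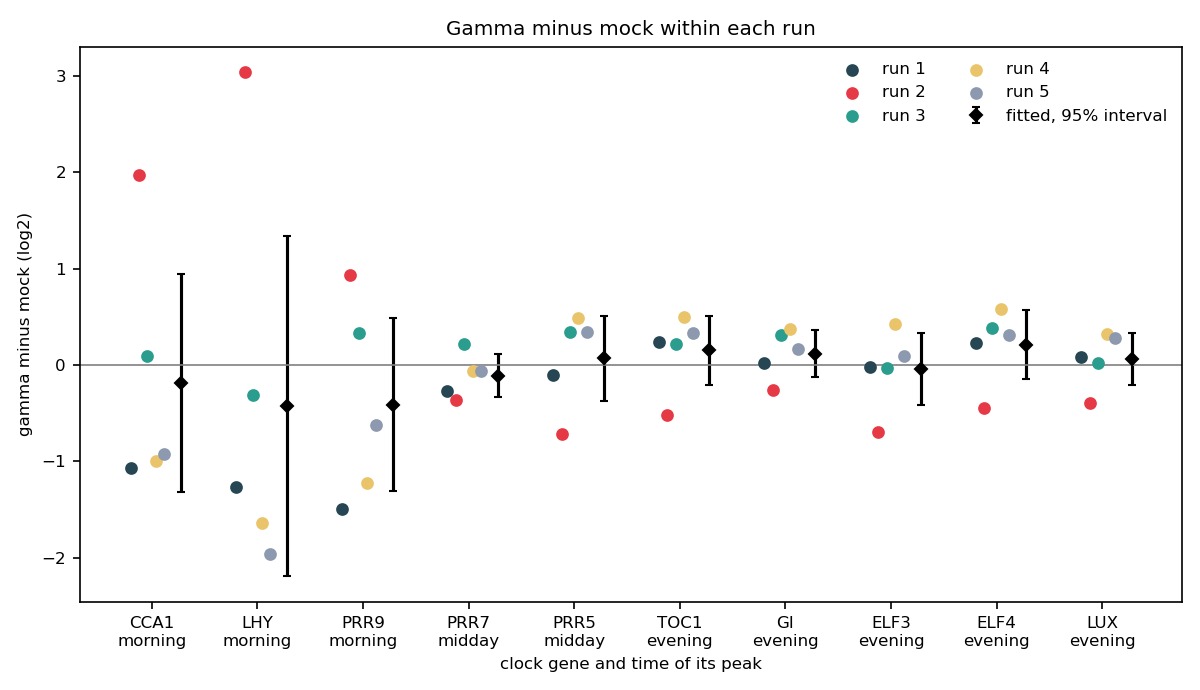
Gamma minus mock (log2) for each clock gene, with 1 coloured point per run and the fitted difference with its 95% interval as a black diamond (n = 5 pairs). In run 2 the 3 morning genes lie above 0 and all other genes below it, and every fitted interval spans 0.

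In run 2 all 3 morning genes were higher on the gamma array, with a median difference of 1.97, and all 5 evening genes and both midday genes were lower, with an evening median of -0.44. In runs 1, 4 and 5 all 3 morning genes were lower on the gamma array, with medians of -1.27, -1.22 and -0.93, and 4, 5 and 5 of the 5 evening genes were higher, with medians of 0.08, 0.43 and 0.28. The evening median of run 1 was below the median size of the difference over all genes in that run, 0.14, and ELF3 gave -0.015 there. In run 3 the 2 arrays lay closer together, with a morning median of 0.09 and an evening median of 0.22. Over all genes tested the median difference lay between -0.02 and -0.0046 in every run. Each run holds 1 array per treatment, so these within-run differences have no replicate check and no test.

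As a description, the mean deviation of the 3 morning genes from their own 10-array means, minus that of the 5 evening genes, was computed for each array. It was -0.38, -0.34, 1.91, 0.59 and -0.66 on the mock arrays and -1.77, 2.101, 1.77, -1.14 and -2.07 on the gamma arrays of runs 1 to 5. The gamma arrays thus covered a wider range than the mock arrays at both ends. Gamma minus mock of this value was -1.39, 2.45, -0.14, -1.72 and -1.41 in runs 1 to 5.

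**Figure D3:**
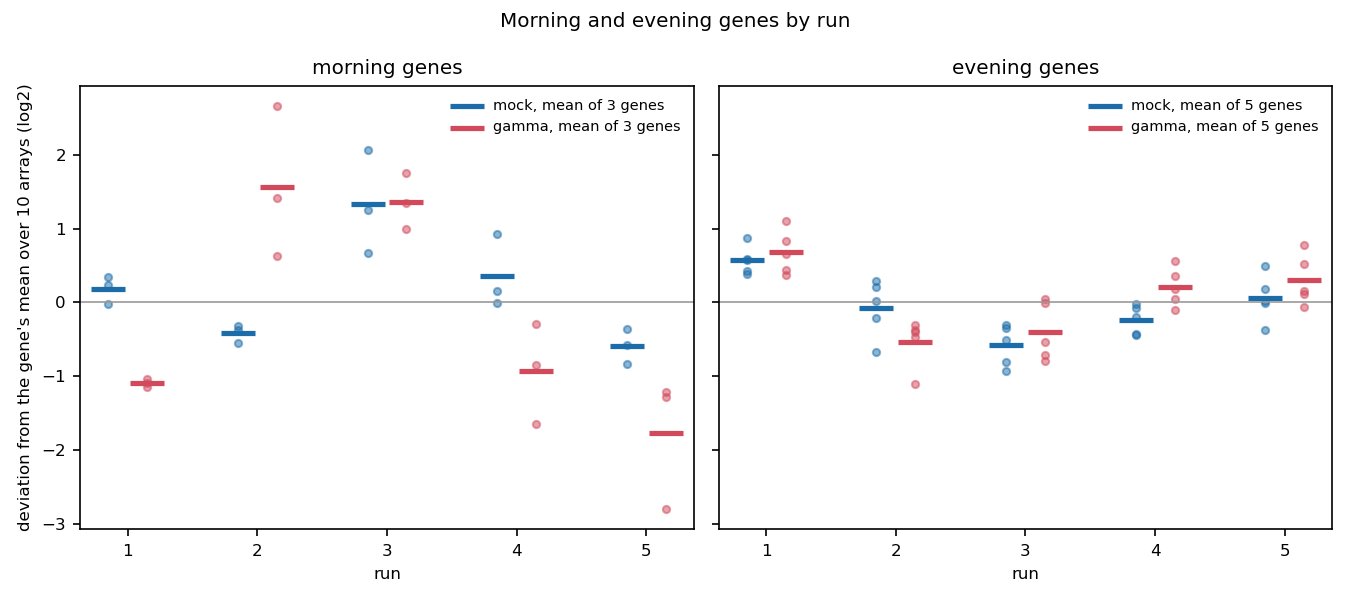
Deviation of each gene from its own mean over the 10 arrays (log2), for the 3 morning genes (left) and the 5 evening genes (right), by run. Points are single genes, bars are their mean on the mock (blue) or gamma (red) array. The morning genes are highest in run 3 and on the gamma array of run 2, and the evening genes are lowest in run 3 and on that same array.

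The same fit without run 2 gave 0 of 10 genes past the threshold, beside 4.32% of all genes. At an unadjusted p under 0.05 there were then 5 of 10, CCA1, LHY, TOC1, GI and ELF4, beside 24.6% of all genes. In run 2 these genes had the opposite sign to runs 1, 4 and 5, so leaving that run out narrows their spread by itself. The genes also share the same arrays. The count is therefore a description and no separate support for a difference. In the 4 remaining runs the fitted difference was -1.30 ± 0.28 SE for LHY (limma adjusted p = 0.0688) and -0.72 ± 0.21 SE for CCA1 (0.124), and it was 0.38 ± 0.071 SE for ELF4 (0.0548) and 0.32 ± 0.065 SE for TOC1 (0.0628). Without run 1, 3, 4 or 5, 0 of 10 genes reached an unadjusted p under 0.05, beside 18.7%, 15.9%, 19.2% and 16.5% of all genes.

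The second comparison asked whether the level of a clock gene differed between runs by more than the spread of its gamma minus mock difference. A moderated F test over the 5 runs, in the same fit, called 5 of the 10 genes, LUX, ELF4, TOC1, PRR7 and GI, where 56.2% of all genes tested were called. At an unadjusted p under 0.05 the count was also 5, beside 65.2% of all genes. The members' share is near the background and is no result about clock genes. The range of the 5 run means had a median of 1.49 over the 10 genes and 0.64 over all genes.

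LUX, with its brighter probe, had the clearest differences between runs. Its run means were 2.098, 1.31, 0.68, 1.22 and 2.13, a range of 1.44 or 2.72-fold (limma F test, adjusted p = 0.00497). Runs 1 and 5 were high and run 3 was low, and in each run the mock and gamma arrays lay within 0.40 of each other with this probe. The other probe of LUX had run means of 0.80, 0.70, -0.27, 0.21 and 0.93, and its gamma minus mock difference in run 2 was -0.94. With the mean of its probes LUX had an adjusted p of 0.0158 in the limma F test. ELF4 had run means of 3.48, 1.60, 2.35, 2.76 and 2.28, a 3.68-fold range (adjusted p = 0.00784), with run 1 highest and run 2 lowest. TOC1 had run means of 1.04, 0.28, -0.49, 0.13 and 0.68, a 2.88-fold range (adjusted p = 0.0143), with the same highest and lowest runs, 1 and 3, as PRR7 at a 1.62-fold range (adjusted p = 0.0408). The second probe of PRR7 gave another order of runs, with means of -3.07, -3.04, -3.42, -3.32 and -3.79 in runs 1 to 5. GI ranged 1.71-fold between runs 1 and 2 (adjusted p = 0.0413).

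The morning genes had wide ranges between runs and did not pass. LHY had run means of -3.21, -1.67, -0.90, -3.64 and -4.62, a range of 3.73 or 13.3-fold (limma F test, adjusted p = 0.113). CCA1 ranged 4.34-fold (adjusted p = 0.158) and PRR9 3.31-fold (adjusted p = 0.171). With another background correction (normexp, described below) the log2 ranges of LHY, CCA1 and PRR9 were 2.82, 1.99 and 1.28. Here they were 3.73, 2.12 and 1.73. The spread of the morning genes within runs was wide as well. The SD of gamma minus mock over the 5 runs was 2.03 for LHY, 1.30 for CCA1 and 1.03 for PRR9. These lay above the 95th percentile of all genes, 0.67, which was not matched for signal level. For the evening genes that SD lay between 0.25 and 0.41, with a median over all genes of 0.19. PRR5 (adjusted p = 0.131) and ELF3 (0.0951) did not pass either.

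**Figure D4:**
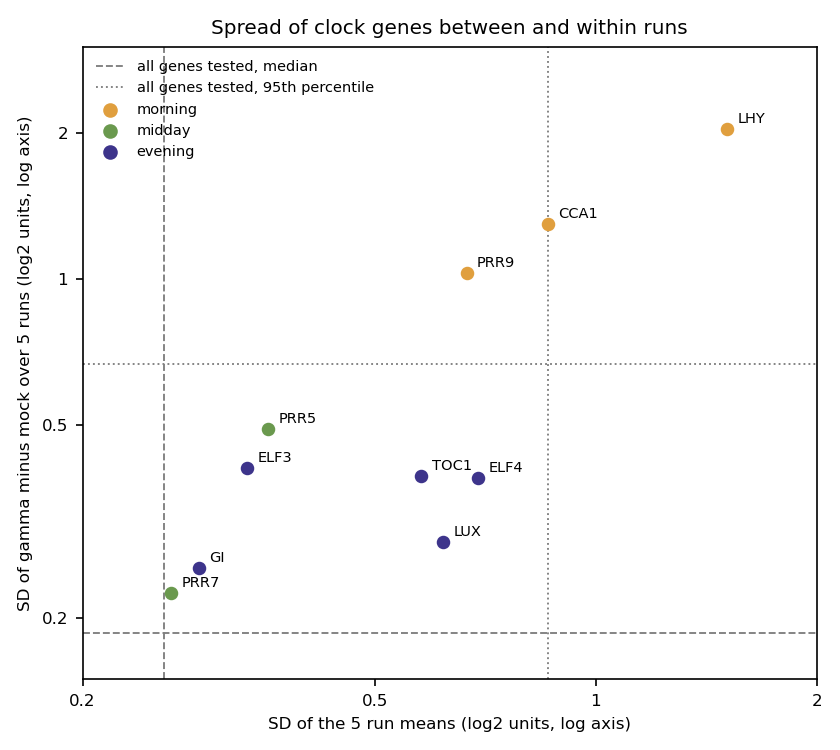
SD of the 5 run means (horizontal, log2 units on a log axis) against the SD of the gamma minus mock difference over the 5 runs (vertical, same units) for the 10 clock genes, coloured by time of peak. Dashed and dotted lines give the median and 95th percentile of all genes tested. All 10 genes lie above both medians, and the morning genes lie above the 95th percentile on the vertical axis.

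Without run 2 the run test called 9 of the 10 genes, all but PRR9 (adjusted p = 0.0559), beside 65.8% of all genes. LHY and CCA1 then passed at adjusted p = 0.00474 and 0.00919, with the same ranges of run means. In run 2 the gamma minus mock differences of LHY and CCA1 lay farthest from those of the other runs. Leaving that run out by itself narrows the spread that this test sets the run means against. The count without run 2 is therefore a description and no separate support for differences between runs. Without run 1, 3 or 5 the test called 1, 2 or 3 of the 10, beside 43.6%, 38.7% and 23.2% of all genes. The calls of PRR7 and GI were the weakest, and each ended under 6 of 12 alternatives. TOC1 lost its call without run 1 (adjusted p = 0.0557) or run 3 (0.0883), and ELF4 lost it without run 1 (0.0573).

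The order of the runs by their means is given as a description, and no test compared the orders of morning and evening genes. With the brightest probe of each gene, run 3 had the highest mean and run 5 the lowest for all 3 morning genes. The second probe of CCA1 was also highest in run 3 but was lowest in run 1, at -4.48, with -4.31 in run 5. For the evening genes, run 1 was highest for 4 of 5 and run 5 for LUX, and the lowest was run 3 for TOC1, ELF3 and LUX and run 2 for GI and ELF4. Both midday genes were highest in run 1 and lowest in run 3, while the second probe of PRR7 was highest in run 2 and lowest in run 5. Of the 40 comparisons of neighbouring runs in these orders 1 passed, that of LUX in runs 1 and 2. Neighbours were taken after sorting the same means, so their gaps are small by construction. The count is thus no evidence that runs are alike, and most single steps of the orders are not resolved. With the other probe of LUX the means of runs 1 and 2 lay closer, at 0.80 and 0.70.

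Taken by pairs of runs, 20 of 100 comparisons passed (10 pairs by 10 genes, brightest probe of each gene, limma, adjusted over all genes within each pair). LUX accounted for 7 of them and ELF4 for 4, and 1 belonged to a morning gene, LHY, which was lower in run 5 than in run 3 by a log2 of 3.73 ± 1.15 SE (adjusted p = 0.0424). Runs 1 and 3 differed in 6 of 10 genes, PRR7 and all 5 evening genes, each lower in run 3, where 20.9% of all genes differed. Runs 3 and 5 differed in 4, with LUX, TOC1 and PRR7 higher and LHY lower in run 5, beside 41.9% of all genes. For PRR7 that direction depended on the probe: its second probe was lower in run 5, at -3.79 against -3.42 in run 3. Runs 3 and 4 differed in 0 of 10 clock genes by this limma test, with 1.44% of all genes past the threshold. Runs 1 and 2 differed in 3, GI, ELF4 and LUX, all lower in run 2, beside 19% of all genes, and runs 2 and 3 in 2, PRR7 and LUX, both lower in run 3, beside 28%. The other pairs gave 1 call each. LUX was lower in run 4 than in run 1 (10.8% of all genes differed) and higher in run 5 than in run 2 (29.1%) and run 4 (32.3%). ELF4 was lower in run 5 than in run 1 (37% of all genes) and higher in run 4 than in run 2 (29.1%).

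Tissue markers also moved between runs. The mean level of the 4 leaf markers was 4.15 and 4.10 on the arrays of run 5, where all 4 had their lowest run mean, 5.09 and 5.12 in run 3 and between 4.37 and 4.95 in runs 1, 2 and 4. One of them, GUN4, had gamma minus mock differences of -0.46, 0.85, -0.03, -0.19 and -0.37 in runs 1 to 5, the sign of LHY in each run. The others, RBCS1A, CA1 and LHCB2.1, did not share these signs. Of the 6 root markers, 3 also had their lowest run mean in run 5. The mean level of the 6 root markers lay between -0.97 and -0.80 on the mock arrays and between -1.19 and -1.01 on the gamma arrays. The root marker WER fell by 0.87 ± 0.15 SE after irradiation (limma adjusted p = 0.0369, lower in 5 of 5 runs), a call that ended under 6 of 14 alternatives. The other 5 root markers did not pass, with fitted differences from -0.45 for CASP1 to 0.20 for PHT1;1, which was higher in 4 of 5 runs. The part of tissue makeup in the clock gene values was not tested.

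The wider clock was described through a list of 30 clock-associated genes and one of 15 clock output genes, all tested. Of the 30, 0 rose and 1 fell after irradiation, beside 4.01% of all genes called in either direction, and 4 had an unadjusted p under 0.05, beside 21.9% of all genes. The list's median difference was -0.06. Both counts are no higher than the background. The gene that fell was RVE7 (AT1G18330), a MYB-like relative of CCA1, with gamma minus mock values of -0.76, -0.89, -0.17, -0.42 and -0.87 and a fitted difference of -0.62 ± 0.12 SE (limma adjusted p = 0.0495). That call ended under 11 of 14 alternatives, with adjusted p up to 0.466 with no replicate block and 0.152 without run 5. RVE7 was lower on the gamma array in run 2 as well, the run in which CCA1 and LHY were higher. Signs in run 2 varied among the 30 genes. RVE1, LNK1 and LNK3, among others, were higher on its gamma array and lower in runs 1, 4 and 5. PRR3, FKF1 and JMJD5, among others, were lower on it and higher in runs 1, 4 and 5. These within-run differences were not tested. RVE4, an activator of evening genes, gave -0.20 ± 0.061 SE (adjusted p = 0.129, lower in 5 of 5 runs).

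Of the 15 output genes 0 rose and 0 fell by the same limma test (4.01% of all genes), with 2 at an unadjusted p under 0.05 (21.9% of all genes) and a median of -0.0012. The lowest adjusted p was that of CDF5 (AT1G69570), a DOF factor that represses the flowering gene CO, at -0.48 ± 0.11 SE (limma adjusted p = 0.0697, lower in 5 of 5 runs).

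Between runs, 16 of the 30 clock-associated and 8 of the 15 output genes passed the F test, or 53.3% of each list, near the 56.2% of all genes. The flowering regulator CO (AT5G15840) had run means of -2.81, -3.48, -4.69, -4.32 and -3.66 (limma F test, adjusted p = 0.00262). BOA (AT5G59570), the closest relative of LUX, had -0.51, -1.31, -1.91, -1.68 and 0.20 (adjusted p = 0.00269), and like LUX it was highest in run 5 and lowest in run 3. CDF5 (adjusted p = 0.00361) and CDF2 (0.00545), repressors of CO, the ELF4 relative EFL1 (0.00449) and the MYB-like gene RVE2 (0.00539) came next, with ranges of run means of 1.63, 1.18, 1.27 and 2.01.

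Likeness was measured as the root mean square difference between 2 genes' 10 array values after each gene was centred on its own mean. The 6 genes with a symbol that lay nearest to CCA1, whose own root mean square deviation was 0.97, were BBX16, RVE8, BBX19, BETA-OHASE 2, RVE1 and AFR, at distances of 0.27, 0.29, 0.36, 0.39, 0.40 and 0.45. RVE8 had a gamma minus mock difference of 1.77 in run 2 and -0.70, -0.013, -0.81 and -0.54 in the other runs. Nearest to GI, with its smaller deviation of 0.29, were PTAC17, emb2184, PDK, OTP84, ELP and emb1473, at 0.098 to 0.13. These distances rest on 10 arrays that share 5 runs and are given with no test. Among the members themselves CCA1 lay 0.47 from PRR9 and 0.75 from LHY. It lay 1.15 and 1.28 from PRR7 and PRR5, and between 1.18 and 1.47 from the evening genes. PRR9 lay 1.096 from LHY, farther than from PRR7, PRR5, GI and ELF3, at 0.93, 1.07, 0.97 and 1.05. Its distances to ELF4, TOC1 and LUX were larger, at 1.16, 1.27 and 1.296. The distances were not scaled to a gene's own deviation, and they do not set the morning genes apart as a group. TOC1 and LUX lay 0.17 apart.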

How the data were processed

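The scanner files hold spot intensity from 1-colour (Cy3) Agilent arrays, background-subtracted and detrended by Feature Extraction 11.0.1.1 per the file headers (the submitters' processing notes name version 9.1), with no scaling between arrays. The deposited value table holds linear ratios of unstated making. Over the probes that passed the filter, log2 of each column followed that array's probe-centred log2 signal with r of at least 0.994, 77.7% of rows had a median of 1, and column medians lay between 0.925 and 0.992. Its direction is thus that of brightness, while the centring of the other rows and its scaling stay unknown. It was used only as an alternative.

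Control spots and outlier spots were left out, spots of a probe were averaged, and probes (34348 of 43603) were named through transcript accessions with the RefSeq table of TAIR10.1. The brightest probe of a gene was used if well above background on at least 5 of 10 arrays. R 4.3.3 and limma 3.58.1 fitted treatment with run as a fixed block over 23668 features (unmatched probes included) (4 residual and 2.27 prior degrees of freedom), two-sided, with Benjamini-Hochberg adjustment at 0.05. Run pairs the arrays, per the labels, and deviations within runs correlated at 0.737, 0.562, 0.775, 0.738 and 0.894 in runs 1 to 5. The fits were tested on simulated data. The normexp alternative used median spot signals and an offset of 50, since mean spot signals were not used here. The root marker WER was chosen after its value was seen.

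The members and lists were chosen with earlier results of these data known. All 10 members are named. From the wider lists came the 3 genes with the lowest adjusted p for gamma and the 6 with the lowest for run, and RVE8 was added through its likeness to CCA1.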

Additional observations from a re-analysis of the deposited data

Results flagged for a closer look

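In 54 sets of 5 values (mock levels, gamma levels and within-run differences of the 10 members and 8 wider clock genes), 1 was marked by a gap test for a lone extreme value. TOC1 gave a gamma minus mock difference of -0.52 in run 2, with the next at 0.22 and the highest at 0.50, so that the gap made up 0.725 of the whole range. Chance marks about 1 set in 20.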

How the results depend on the processing

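The count of 0 members past the threshold after irradiation held under all 14 alternatives: normexp, scaling to the array median, quantile normalisation, no filter on dim probes, a filter on all 10 arrays, the mean of a gene's probes, the deposited table, each run left out, no replicate block and a random replicate block. With no replicate block the difference of LHY was -0.43 ± 1.02 SE (adjusted p = 0.9997), and RVE7 and WER lost their calls (adjusted p = 0.466 and 0.144). Slide and run coincide, so no separate slide block was fitted. Of the single members' gamma differences, 133 kept their sign and 7 changed it, all in genes that were not called. With the mean of its probes LUX gave -0.029, and with single runs left out the differences ranged from -0.72 to 0.036 for CCA1, -1.30 to -0.045 for LHY, -0.75 to -0.14 for PRR9, -0.034 to 0.27 for PRR5, -0.16 to 0.12 for ELF3, -0.0026 to 0.18 for LUX, -0.19 to -0.046 for PRR7, 0.066 to 0.32 for TOC1, 0.057 to 0.22 for GI and 0.12 to 0.38 for ELF4. With normexp LHY gave -0.055 and PRR9 -0.27. RVE7 lost its call under 11 alternatives and WER under 6, while the 6 wider genes named for the run test kept theirs under all 12 run alternatives. Without a filter on dim probes the run test called 3 members, beside 53.6% of the 34290 features tested. In that setting 13 of the 100 comparisons of a gene between a pair of runs passed. With single runs left out the run test called 1 to 9 members and 5 to 33 of the 60 such comparisons then formed. Under the other processing alternatives it called 4 or 5 members, beside 53.7% to 60.9% of all genes, and 15 to 26 comparisons. The share of all genes called after irradiation, 4.01%, was 0.957% with no filter, 0.6% with no replicate block, 8.12% with a random block and between 0.752% and 4.32% with single runs left out. For the run test it was between 23.2% and 65.8% with single runs left out. The cause was not tested. With 5 arrays per group, a 95% interval as wide as that of LHY leaves differences of several fold in either direction undetectable.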
